A study of Mus musculus with 6 samples.

Results

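The subject is a pair of microRNAs (miRNAs), mmu-miR-10a-5p and mmu-miR-10b-5p, as they were found bound to Argonaute (Ago) proteins in mouse brain. The members were taken by name, as the rows of the deposited table that carried one of these 2 names. There were 74 such rows of 109434, each 1 unique read sequence, 56 of them for mmu-miR-10a-5p and 18 for mmu-miR-10b-5p. Of these rows, 47 (35 and 12) were above 0 in at least 1 sample, 27 were at 0 in all samples, and 18 (11 and 7) reached a mean of 1 RPM (reads scaled by the authors to the same library total in every sample), the level needed for a test. Summed by name, the members were 2 of 782 mature miRNAs above 0 and 2 of 689 tested.

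Ago-bound short RNAs were sequenced from 3 wild type (WT) mice and 3 Tau tg mice, whose genotype label reads Tau fragment tg and which carry a fragment of human tau under the Thy 1.2 promoter. Per the study's methods, the tau mice were on a C57BL/6J background, the mice were 3 months old and the control mice were male. The study's results describe the tau mice as male too. The labels give no further treatment. The Thy 1.2 promoter drives expression mainly in neurons, so the model covers a neuronal transgene. The general pull-down protocol gave mouse brain tissue as cortex combined with hippocampus. The source label of the samples named hippocampus only, and the study's results also name hippocampi for the tau mice. Neither description included hindbrain. The table held no measurement of the transgene, so the genotype was not checked here.

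The miR-10 genes lie within the Hox clusters, the arrays of homeobox genes that give the body axis its positional identity from the hindbrain to the tail. In the developing nervous system Hox genes are used mainly in the hindbrain and spinal cord and are largely silent in the forebrain. A miRNA transcribed with them can therefore serve as a mark of tissue behind the midbrain, though Hox gene expression in these adult brains was not measured. Both miRNAs are also expressed outside the nervous system, which limits them as a position marker. A miRNA guides Ago to messenger RNAs mainly through its seed, the bases near its 5′ end that pair with the target.

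The mature sequences from RefSeq (GRCm38.p6) are given first, with the seed (bases 2 to 8) in capitals, because they show why both members count as 1 seed family. The 3 relatives miR-99a-5p, miR-99b-5p and miR-100-5p follow for comparison.
mmu-miR-10a-5p: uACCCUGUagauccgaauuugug
mmu-miR-10b-5p: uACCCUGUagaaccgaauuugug
mmu-miR-99a-5p: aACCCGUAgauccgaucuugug
mmu-miR-99b-5p: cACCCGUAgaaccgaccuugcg
mmu-miR-100-5p: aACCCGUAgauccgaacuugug
Both members were 23 nt long, carried the same seed and matched at 22 of 23 positions (95.7%). The relatives shared a seed among themselves that differed from that of the members. Aligned with a shift of 1 base and no gap, mmu-miR-10a-5p matched miR-100-5p at 19 of 22 positions (86.4%), miR-99a-5p at 18 (81.8%) and miR-99b-5p at 15 (68.2%).

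A single base outside the seed told the members apart, shown here in capitals.
mmu-miR-10a-5p: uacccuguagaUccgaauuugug
mmu-miR-10b-5p: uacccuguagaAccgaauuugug
Counted from 1 at the 5′ end, the change from mmu-miR-10a-5p to mmu-miR-10b-5p was U12A. Because 1 base decided the name, the reads were counted by the base they held there. Over all 6 samples, 3539 reads had U, 486 had A, 3 had C and 0 had G at position 12. The count with A was thus far above the counts of the other substitutions at that position.

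The hairpins, with both mature arms in capitals, show where the reads came from.
Mir10a: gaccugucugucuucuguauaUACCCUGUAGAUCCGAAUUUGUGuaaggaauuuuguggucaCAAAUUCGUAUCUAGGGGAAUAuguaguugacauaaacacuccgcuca
Mir10b: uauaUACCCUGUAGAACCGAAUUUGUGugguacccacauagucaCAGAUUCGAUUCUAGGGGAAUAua
Mir10a lies on the plus strand at chr11:96317165-96317274 (GRCm38), in the HoxB cluster, between Hoxb5, which ends 11044 bases before it, and Hoxb4, which starts 993 bases after it, and inside no other annotated gene. Mir10b lies on the plus strand at chr2:74726070-74726137, in the HoxD cluster, inside the annotated spans of Hoxd3 and Hoxd4 and in no exon of either, that is, in intronic sequence. Nearly all reads were from the 5p arm. For Mir10a, 3601 reads were 5p and 16 were 3p over all samples, a 3p share of 0.442%. For Mir10b, 487 reads were 5p and 15 were 3p (2.99%). All 15 of the 3p reads were in Tau tg 1, a share of 9.375% there, beside 145 5p reads. WT 1, with 149 5p reads, had 0. In the other libraries 0 Mir10b 3p reads allow a share of up to 2.01% (WT 1) to 13.6% (Tau tg 3), with 3 reads as the limit that a count of 0 allows.

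The libraries held between 998248 (WT 3) and 6879551 (Tau tg 1) reads, and miRNAs were 82.7% to 92.4% of the RPM of a sample. A floor of 3 reads was between 0.427 RPM in Tau tg 1 and 2.75 RPM in WT 3. Neuronal miRNAs of a list of 6, such as miR-124-3p and miR-9-5p, were summed. Their sum was 156997 to 165592 RPM in WT against 156191 to 173024 RPM in Tau tg. Of the 6, 5 had a positive log2 change, Tau tg against WT, and miR-124-3p a negative one (−0.36, limma, unadjusted p 0.310). miR-9-5p was at 29427 to 37676.7 RPM in WT against 44564.5 to 48004.6 RPM in Tau tg, without overlap. Its log2 change was 0.53 (limma, unadjusted p 0.114). The sum does not show which brain region was dissected, and this was not tested. Over all 689 tested miRNAs the median log2 change, Tau tg against WT, was 0.25, so a change of 0 on the RPM scale lay below the middle of all miRNAs.

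mmu-miR-10a-5p was the more abundant member and ranked 195 by mean level among the miRNAs. It was at 200 RPM in WT 1, 324 RPM in WT 2 and 511 RPM in WT 3, and at 143 RPM (Tau tg 1), 280 RPM (Tau tg 2) and 328 RPM (Tau tg 3) in the transgenic mice. WT 3 was the highest and Tau tg 1 the lowest sample, all 3 Tau tg samples were below the WT mean, and the groups overlapped. The mean was 345 ± 156 RPM in WT against 250 ± 96.2 RPM in Tau tg (SD, n = 3 each). These levels rested on 428, 478 and 557 reads in WT 1 to 3 and on 1002, 335 and 801 reads in Tau tg 1 to 3. The exact 95% Poisson interval, which covers counting error only, was 469 to 555 RPM in WT 3 and 134 to 152 RPM in Tau tg 1, so the 3.58-fold range between samples was wider than counting error.

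mmu-miR-10b-5p was lower in every sample and ranked 365. It was at 69.8 RPM in WT 1, 23.0 RPM in WT 2 and 31.2 RPM in WT 3, and at 20.6 RPM (Tau tg 1), 86.1 RPM (Tau tg 2) and 9.001 RPM (Tau tg 3) in the transgenic mice. The highest and the lowest sample were both Tau tg, 9.57-fold apart, and the groups overlapped. The mean was 41.3 ± 24.98 RPM in WT against 38.6 ± 41.6 RPM in Tau tg (SD, n = 3 each). The reads behind it were few, with 149, 34 and 34 in WT 1 to 3 and 145, 103 and 22 in Tau tg 1 to 3. The Poisson interval spanned 70.3 to 104 RPM for Tau tg 2 but 5.64 to 13.6 RPM for Tau tg 3, so these samples also differed by more than counting error.

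**Figure D1:**
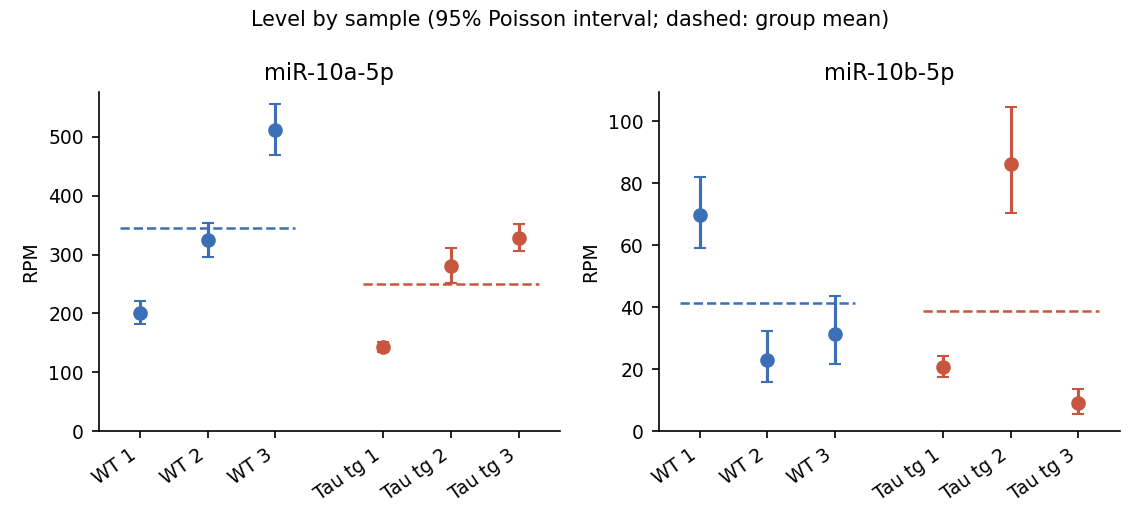
Level of mmu-miR-10a-5p (left) and mmu-miR-10b-5p (right) in RPM on linear axes that start at 0, for each of 3 WT (blue) and 3 Tau tg (red) samples. Bars are 95% Poisson intervals of the reads, dashed lines are group means. The groups overlap in both panels, and the sample order differs between the panels.

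Neither member passed the test between Tau tg and WT. The log2 change of mmu-miR-10a-5p was −0.45 with a standard error of 0.46 and an adjusted p of 0.896 (limma on log2(RPM + 1), unadjusted p 0.350). For mmu-miR-10b-5p it was −0.51 with a standard error of 0.91 and an adjusted p of 0.937 (limma, unadjusted p 0.581). Thus 0 of 2 members passed an unadjusted p of 0.05, where 25 of all 689 tested miRNAs, or 3.63%, did, and 0% of the 689 passed after adjustment (the count of 25 was 50 without WT 1). By edgeR and DESeq2 on the recovered reads 0 of 2 members passed as well. Relative to the median of all tested miRNAs the changes were −0.69 and −0.76. The standard error of the mmu-miR-10b-5p change was larger than the change itself, and its sign rested on Tau tg 3, since the change was 0.19 without that sample and −1.37 without Tau tg 2. The mmu-miR-10a-5p change stayed below 0 with any 1 sample left out, between −0.78 without WT 1 and −0.08 without Tau tg 1, and it was −0.11 without WT 3. In bulk tissue, fewer cells that make a miRNA and less of it per cell cannot be told apart. Only Ago-bound RNA was sequenced, so a change in how much of a miRNA was loaded into Ago cannot be told apart either.

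The ratio of the members does not depend on how a library was scaled, and it was not alike in the samples. mmu-miR-10a-5p was 2.87, 14.1 and 16.4 times as abundant as mmu-miR-10b-5p in WT 1 to 3, and 6.91, 3.25 and 36.4 times in Tau tg 1 to 3. mmu-miR-10b-5p made up 25.8% (WT 1), 6.64% (WT 2), 5.75% (WT 3), 12.6% (Tau tg 1), 23.5% (Tau tg 2) and 2.67% (Tau tg 3) of the reads of both. WT 1 and Tau tg 2 stood high and Tau tg 3 low, across the groups. The mean log2 ratio was 3.12 ± 1.39 in WT and 3.23 ± 1.78 in Tau tg (SD, n = 3 each), a difference of 0.10 (exact two-sided permutation test, p = 0.9, where 0.1 is the smallest p that 3 against 3 samples can give). The difference was −0.70 without WT 1 and −0.88 without Tau tg 3. Summed, the members differed by −0.44 on the log2 scale (exact two-sided permutation test, p = 0.5). Over the 6 samples, which share their libraries across miRNAs, the log2 levels of the members had a Pearson r of −0.13 and a Spearman rho of −0.14, a description without a test. Without Tau tg 1 and WT 3, the samples farthest from the median of mmu-miR-10a-5p, the Pearson r was −0.70. Without Tau tg 2 and Tau tg 3, the farthest for mmu-miR-10b-5p, it was −0.035.

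The spread of each member was set beside that of the other miRNAs. The SD of log2(RPM + 1) over the 6 samples was 0.63 for mmu-miR-10a-5p and 1.16 for mmu-miR-10b-5p, against a median of 0.63 over the 476 miRNAs with a mean of at least 10 RPM. Of these miRNAs, 50.2% had a smaller SD than mmu-miR-10a-5p and 76.9% a smaller SD than mmu-miR-10b-5p. Low miRNAs varied more as a class. Among the 122 miRNAs within 2-fold of its own mean level, 55.7% had a smaller SD than mmu-miR-10b-5p, and among the 110 around mmu-miR-10a-5p the share was 63.6%. Both members thus varied between brains about as much as miRNAs of like abundance.

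**Figure D2:**
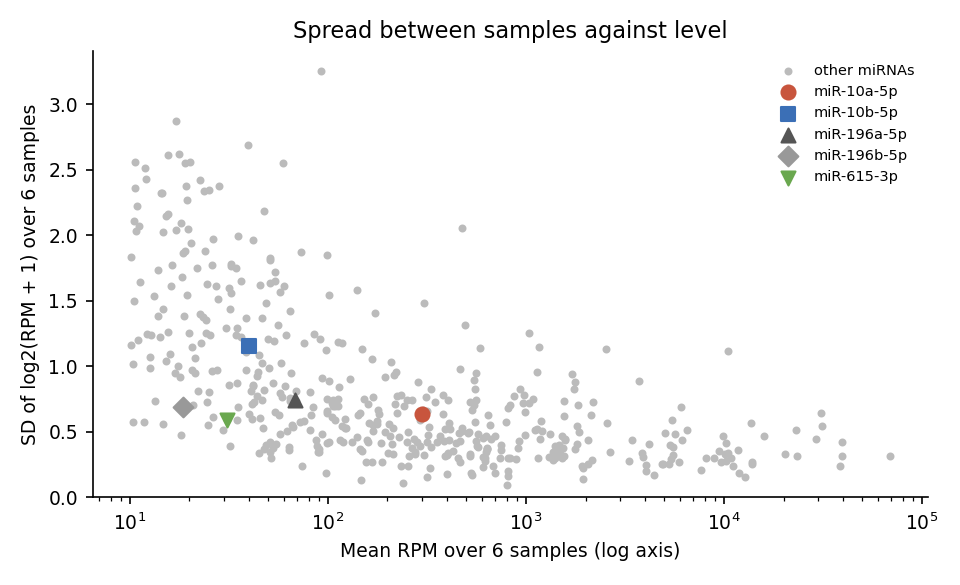
Spread between samples (SD of log2(RPM + 1) over 6 samples) against mean RPM on a log axis for miRNAs with a mean of at least 10 RPM. Grey points are other miRNAs and large symbols the miRNAs of the Hox clusters. mmu-miR-10a-5p (SD 0.63) and mmu-miR-10b-5p (SD 1.16) lie within the cloud of miRNAs of like level.

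The reads of the members were not all the mature sequence. The most abundant reads are shown because their starts decide which 6mer seed (read positions 2 to 7, in capitals) Ago presents.
mmu-miR-10a-5p read 1: uACCCUGuagauccgaauuugu
mmu-miR-10a-5p read 2: aCCCUGUagauccgaauuugug
mmu-miR-10a-5p read 3: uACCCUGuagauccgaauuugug
mmu-miR-10a-5p read 4: aCCCUGUagauccgaauuugu
mmu-miR-10a-5p read 5: uACCCUGuagauccgaauuuguga
mmu-miR-10a-5p read 6: aCCCUGUagauccgaauuuguga
mmu-miR-10b-5p read 1: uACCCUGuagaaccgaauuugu
mmu-miR-10b-5p read 2: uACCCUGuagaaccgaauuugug
mmu-miR-10b-5p read 3: aCCCUGUagaaccgaauuugugu
mmu-miR-10b-5p read 4: uACCCUGuagaaccgaauuug
mmu-miR-10b-5p read 5: aCCCUGUagaaccgaauuugu
mmu-miR-10b-5p read 6: aCCCUGUagaaccgaauuugug
For both members the leading read was 22 nt long and lacked the last base of the mature sequence. It made up 54.5% of the mean RPM of mmu-miR-10a-5p and 53.2% of that of mmu-miR-10b-5p. The mature 23-nt sequence made up 10.8% and 14.5%. Reads 2, 4 and 6 of mmu-miR-10a-5p and reads 3, 5 and 6 of mmu-miR-10b-5p started 1 base later, which moves the seed from ACCCUG to CCCUGU. Reads 5 and 6 of mmu-miR-10a-5p ended in an A that the hairpin does not hold at that place, where it has a U.

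The seed matters here because the study assigned to each 6mer seed a viability score. This score is the percent viability measured after cells were transfected with a short RNA with that seed, averaged over 3 murine cell lines. The deposited viability was 74.7% for ACCCUG, higher than that of 73.5% of the 4051 seeds in the table, and 52.1% for CCCUGU, higher than that of 33.1%. The share of mmu-miR-10a-5p reads that started 1 base later was 30.8%, 34.5% and 13.5% in WT 1 to 3 and 24.1%, 27.8% and 25.6% in Tau tg 1 to 3. WT 3 was the lowest, both other WT samples were above every Tau tg sample, and the groups overlapped. For mmu-miR-10b-5p the share was 16.1%, 17.6% and 20.6% in WT 1 to 3 and 31.7%, 29.1% and 9.09% in Tau tg 1 to 3. Tau tg 3, with 22 reads, was the lowest and the other Tau tg samples the highest, so the groups overlapped here as well. Weighted over their reads, the mean seed viability was between 66.7% and 70.4% for mmu-miR-10a-5p and between 67.5% and 72.6% for mmu-miR-10b-5p in the 6 samples.

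The members supplied most of the reads in the table with their own seed and few of those with the shifted one. Of all RPM with the seed ACCCUG, they made up 81.7%, 76.4% and 84.3% in WT 1 to 3 and 89.2%, 83.99% and 85.8% in Tau tg 1 to 3. Of all RPM with the seed CCCUGU they made up 4.25% (Tau tg 3) to 12.0% (Tau tg 2). Thus the total level of the ACCCUG seed, 238, 299 and 519 RPM in WT against 136, 298 and 288 RPM in Tau tg, followed that of mmu-miR-10a-5p in its highest and lowest sample.

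**Figure D3:**
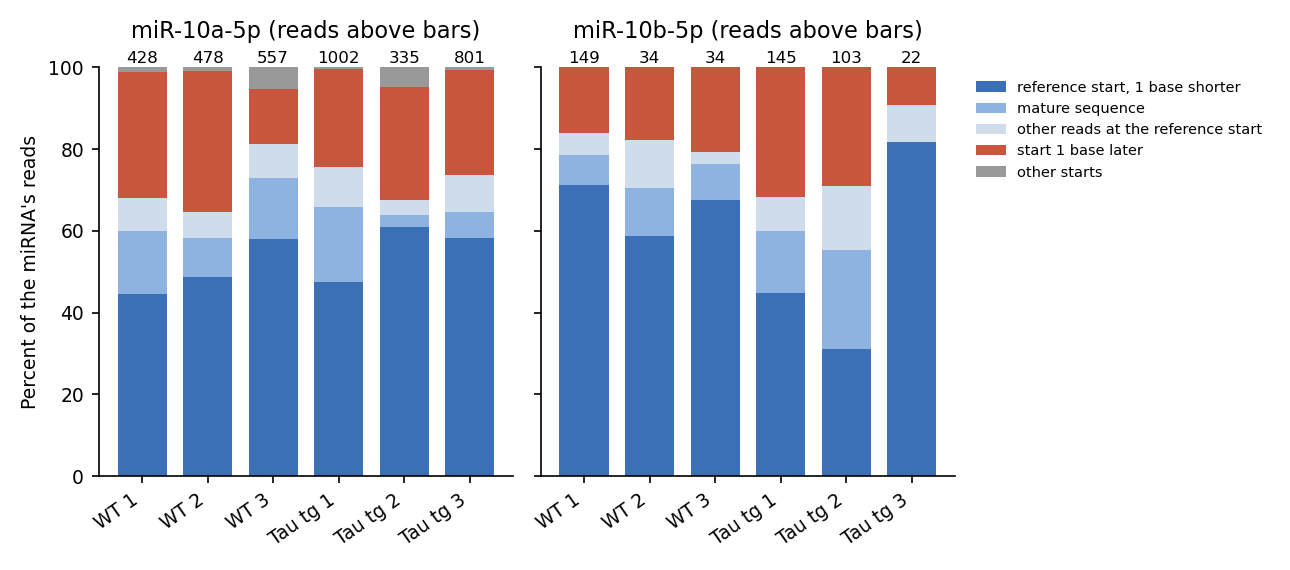
Make-up of the reads of mmu-miR-10a-5p (left) and mmu-miR-10b-5p (right) in percent of the reads of the miRNA in each sample, with the number of reads above each bar. Blue shades start at the reference base, red starts 1 base later, grey at other positions. The read that is 1 base shorter than the mature sequence is the largest class of mmu-miR-10a-5p in every sample and of mmu-miR-10b-5p too, and Tau tg 2 has its lowest share for mmu-miR-10b-5p (31.1%).

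No isoform passed the test between the groups. Of the 18 tested isoforms, 0 had an unadjusted p under 0.05 (limma over sequences), where 803 of all 36070 tested sequences, or 2.23%, did, and the lowest adjusted p among the 18 was 0.584. By edgeR and DESeq2 the count was 0 as well. The leading mmu-miR-10a-5p read was at 89.5, 158 and 296 RPM in WT 1 to 3 against 67.6, 171 and 191 RPM in Tau tg 1 to 3. These values overlapped, with a log2 change of −0.31 that was 0.13 without WT 3 and 0.16 without Tau tg 1. The mature 23-nt mmu-miR-10a-5p read was at 30.9, 30.5 and 76.1 RPM in WT against 26.2, 8.36 and 20.9 RPM in Tau tg. It was the 1 isoform of 18 whose groups did not overlap. The share without overlap over all tested sequences was not counted, so no result is drawn from that count. The log2 change of this read was −1.27 with an adjusted p of 0.584 (limma). The mmu-miR-10a-5p read extended by the next base of the hairpin, a U, to 24 nt had the lowest unadjusted p. It was at 2.81, 17.6 and 13.8 RPM in WT against 0.854, 0 and 4.91 RPM in Tau tg, where Tau tg 3 was above WT 1, with a log2 change of −2.19 and an adjusted p of 0.584 (limma). This read was singled out after its values were seen, and it alone passed an unadjusted p of 0.05 (limma) without WT 1 or without Tau tg 3. The leading mmu-miR-10b-5p read was at 49.7, 13.6 and 21.1 RPM in WT against 9.25, 26.8 and 7.37 RPM in Tau tg, with overlapping groups and a log2 change of −0.92.

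Among reads of mmu-miR-10b-5p, the libraries differed in their ends. An added A was found on 4.70%, 5.88% and 0% of its reads in WT 1 to 3 and on 28.3%, 0% and 9.09% in Tau tg 1 to 3. In Tau tg 1, 41 of 145 reads carried it, with a Wilson 95% interval, which covers counting error only, of 21.6% to 36.1%. Of these 41 reads, 39 were 1 sequence, aCCCUGUagaaccgaauuuguga, which had 6 reads in WT 1 and 0 in the other samples. In Tau tg 2, 0 of 103 reads carried an added A, which allows a share of up to 2.91%. The 0% in WT 3, of 34 reads, allows up to 8.82%. Reads extended by the hairpin's own sequence were instead 20.4% in Tau tg 2 and at most 6.71% in any other sample. In Tau tg 2 these were 21 reads, all of 1 sequence (read 3). For mmu-miR-10a-5p the A-tailed share was 7.48%, 0.628% and 4.49% in WT 1 to 3 and 6.99%, 2.09% and 13.1% in Tau tg 1 to 3. The A-tailed share was highest in Tau tg 3 for mmu-miR-10a-5p and in Tau tg 1 for mmu-miR-10b-5p.

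The share of reads with the exact mature sequence was 15.4%, 9.41% and 14.9% for mmu-miR-10a-5p in WT 1 to 3 and 18.4%, 2.99% and 6.37% in Tau tg 1 to 3. The groups overlapped, with a difference of −4.01 percentage points (exact two-sided permutation test, p = 0.5). For mmu-miR-10b-5p it was 7.38%, 11.8% and 8.82% in WT and 15.2%, 24.3% and 0% in Tau tg, a difference of 3.82 percentage points (exact two-sided permutation test, p = 0.7). Tau tg 2 had the lowest share for mmu-miR-10a-5p and the highest for mmu-miR-10b-5p, and without it the mmu-miR-10b-5p difference was −1.74 percentage points. The 0% of Tau tg 3, of 22 reads, allows up to 13.6%.

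The mean read length of mmu-miR-10a-5p was 22.13 ± 0.045 nt in WT and 22.03 ± 0.24 nt in Tau tg (SD, n = 3 each, exact two-sided permutation test, p = 1), and the difference of −0.096 nt was 0.040 nt without Tau tg 2. For mmu-miR-10b-5p the mean read length was 22.12, 22.03 and 22 nt in WT 1 to 3 and 22.43, 22.24 and 22.14 nt in Tau tg 1 to 3. The 3 Tau tg samples were longer than the 3 WT samples, by 0.22 nt between the means (exact two-sided permutation test, p = 0.1, the smallest this design can give, adjusted p = 0.6 over 6 measures). The difference was 0.18 nt with reads of 19 to 25 nt only (p = 0.2, same exact test) and 0.17 nt with isoforms of at least 1 RPM only (p = 0.4, same exact test), so the full separation of the groups was lost in both. The design could not reach p under 0.05, and 3 of the 6 values rested on 34 reads or fewer.

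The other miRNAs encoded in the Hox clusters were read beside the members. Mir196a-1 (HoxB), Mir196a-2 (HoxC) and Mir196b (HoxA) lie toward the posterior end of their clusters, near the Hox9 and Hox10 genes, and Mir615 lies in the HoxC cluster inside the span of Hoxc5. Of 11 listed mature miRNAs, 9 were above 0 and 6 were tested. None of the 6 rose and none fell at an unadjusted p under 0.05 (0 calls by limma, edgeR and DESeq2, against 3.63% of all tested miRNAs by limma), and their median log2 change, members included, was −0.35, with 2 positive and 4 negative. The mature miR-196a-1-3p and miR-196a-2-3p had no row above 0.

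miR-196a-5p was at 90.4, 83.3 and 48.6 RPM in WT 1 to 3 against 26.6, 109 and 49.5 RPM in Tau tg 1 to 3. Like mmu-miR-10b-5p it was highest in Tau tg 2 and second in WT 1, and the groups overlapped. miR-615-3p was at 27.2, 37.9 and 17.4 RPM in WT against 17.4, 46.8 and 38.5 RPM in Tau tg, again highest in Tau tg 2. miR-196b-5p was at 39.8, 17.6 and 8.26 RPM in WT against 14.5, 15.9 and 14.7 RPM in Tau tg, so its range lay within WT. miR-615-5p had at most 2 reads in any sample. miR-196b-3p had at most 3 reads except in Tau tg 3, where 10 reads gave 4.09 RPM.

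**Figure D4:**
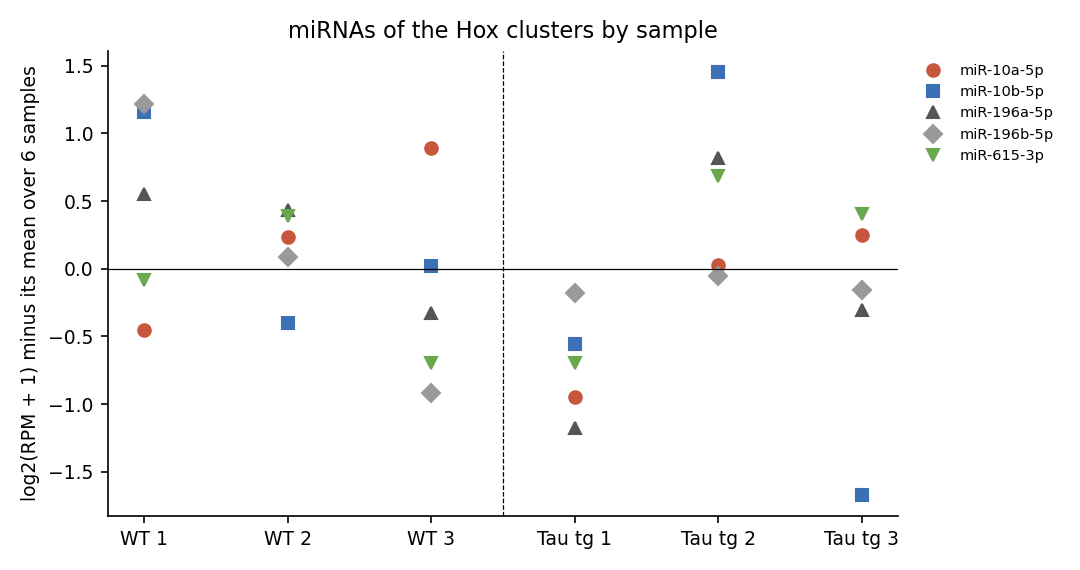
log2(RPM + 1) of 5 Hox-cluster miRNAs in each sample, less the mean of that miRNA over the 6 samples, with WT left and Tau tg right of the dashed line. Points above 0 are higher than the miRNA's own mean. mmu-miR-10b-5p and miR-196a-5p are both high in WT 1 and Tau tg 2, where mmu-miR-10a-5p is below or near its mean. No sample is high for all 5, and all 5 are below their mean in Tau tg 1. The share of all miRNAs below their own mean in that library was not counted.

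The summed level of the 11 Hox-cluster miRNAs was 432, 487 and 617 RPM in WT 1 to 3 against 226, 540 and 444 RPM in Tau tg 1 to 3. Tau tg 1 was the lowest, and the groups overlapped. In Tau tg 1, the deepest library, all 5 of the more abundant miRNAs were below their own mean over the samples. For miR-196b-5p the level there, 14.5 RPM, was close to the 15.9 and 14.7 RPM of Tau tg 2 and 3. The share of all miRNAs below their own mean in Tau tg 1 was not counted, so no joint deficit is read from this. Over the 6 samples mmu-miR-10b-5p had a Pearson r of 0.65 with miR-196a-5p (rank 28 of 475 miRNAs), 0.41 with miR-196b-5p and 0.13 with miR-615-3p. For mmu-miR-10a-5p, r was 0.26 with miR-196a-5p, 0.15 with miR-615-3p and −0.56 with miR-196b-5p. These values depended on Tau tg 1 and WT 3, its lowest and highest sample. Over the few samples left without them, r was −0.48, 0.73 and −0.94, so the first changed sign and the others grew in size. The members did not rank the samples in the same order as each other or as the other Hox-cluster miRNAs, several of which had few reads (9 to 102 for miR-196b-5p). Whether tissue from behind the midbrain had a part in these levels was not tested.

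The miRNAs whose levels were most like each member were found by Pearson r of log2(RPM + 1) over the same 6 samples, among 475 miRNAs with a mean of at least 10 RPM. For mmu-miR-10a-5p they were miR-93-5p (0.93), miR-365-3p (0.91), miR-6341 (0.91), miR-21a-5p (0.90) and miR-590-3p (0.89). miR-93-5p was at 1602, 2433 and 3784 RPM in WT 1 to 3 against 1421, 3037 and 3179 RPM in Tau tg 1 to 3, so WT 3 was again the highest and Tau tg 1 the lowest. For mmu-miR-10b-5p they were miR-92a-3p (0.95), miR-674-3p (0.94), miR-342-3p (0.93), miR-25-3p (0.91) and miR-23a-3p (0.90). miR-92a-3p was at 1676, 1366 and 1241 RPM in WT against 1122, 2067 and 981 RPM in Tau tg, highest in Tau tg 2 and lowest in Tau tg 3, as mmu-miR-10b-5p was. With so many miRNAs and 6 samples, some high values of r arise in any such search, and all miRNAs of a sample share its library.

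Of the relatives by sequence, miR-100-5p followed mmu-miR-10a-5p with r of 0.79 and rank 10, and miR-99a-5p (−0.23) and miR-99b-5p (−0.61) did not. miR-100-5p was at 4094, 8841 and 7684 RPM in WT 1 to 3 against 4582, 5199 and 6499 RPM in Tau tg 1 to 3. miR-99a-5p was at 14991, 9467 and 12333 RPM in WT against 16214, 1992 and 8253 RPM in Tau tg, lowest in Tau tg 2, where mmu-miR-10b-5p was highest. miR-99b-5p was at 2426, 1470 and 993 RPM in WT against 1572, 1208 and 1788 RPM in Tau tg. None of the 3 relatives passed an unadjusted p of 0.05 (limma, 0 of 3), and their median log2 change was −0.28. The log2 change of miR-99a-5p was −0.90. Leaving out Tau tg 2 brought it to −0.06, and leaving out Tau tg 1 to −1.57, past an unadjusted p of 0.05 but with an adjusted p of 0.567 (limma). Each relative was above both members in every sample.

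Markers of other tissue were set beside the members. Of a list of 6 pituitary and epithelial miRNAs (the miR-200 family and miR-375-3p), 4 fell in Tau tg at an unadjusted p under 0.05, against 3.63% of all tested miRNAs in either direction, and 0 after adjustment (limma). The 4 were of the miR-200 family, and 0 rose. Their summed level was 3146, 6160 and 9891 RPM in WT 1 to 3 against 2359, 2559 and 2364 RPM in Tau tg 1 to 3. The sum was carried by the miR-200 family. miR-375-3p, which is found in endocrine cells, was at 41.2, 53.5 and 59.6 RPM in WT 1 to 3 against 61.3, 76.1 and 89.2 RPM in Tau tg 1 to 3, higher without overlap but not past the test (log2 change 0.54, limma, unadjusted p 0.379). For the sum, the 3 WT samples had the same order as for mmu-miR-10a-5p, but the 3 Tau tg samples did not. Among these, the sum was highest in Tau tg 2 and mmu-miR-10a-5p in Tau tg 3. Of the list's markers none was at 0, and the part of such tissue in the level of mmu-miR-10a-5p was not tested. Of the choroid plexus list of 3, whose defining miRNA miR-204-5p is abundant in that tissue, 0 were called, with a summed level of 1789 to 4915 RPM in WT against 1959 to 8423 RPM in Tau tg, highest in Tau tg 1, where mmu-miR-10a-5p was lowest. Of the oligodendrocyte (3), vascular (4), red blood cell (3) and muscle, liver and kidney (6) lists, 0 were called, and the summed levels overlapped between the groups. The oligodendrocyte sum was 8442 to 13591 RPM in WT against 10627 to 13997 RPM in Tau tg, the vascular sum 8191 to 14931 and 11026 to 15397 RPM, the red blood cell sum 729 to 1186 and 780 to 1294 RPM, and the muscle, liver and kidney sum 700.0 to 1228 and 651 to 1084 RPM. Their part in the members' levels was not tested.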

How the data were processed

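Per the study's methods and labels, the Ago-bound RNA of each brain was pulled down with a GW182 peptide, gel-purified and sequenced. The deposited values are RPM made by the authors with the SPOROS pipeline (trimming with Trim Galore, unique reads, removal of rare reads, BLAST naming), in which the reads of each sequence are scaled to the same library total in every sample. The removal of rare reads leaves low values incomplete. The authors' viability score, in percent for each seed and a mean of 3 mouse cell lines, was taken from the deposited table unchanged. The aligner version and genome build were not given in the sources used here.

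Rows were summed by their single mature name. Tests covered all miRNAs, and separately all sequences, whose mean reached 1 RPM; they were run with limma 3.58.1 (R 4.3.3) with trend on log2(RPM + 1), Benjamini-Hochberg adjusted over all of them; fold changes on this scale understate changes of low rows. Single values were tested by exact two-sided permutation over the 20 assignments. Within 0.0011 RPM plus 1e-06 of the value, 100% of values were whole multiples of 1 read's worth, and edgeR 4.0.16 and DESeq2 1.42.0 on the recovered reads were alternatives. Whole-number reads ranged from 998248 to 6879551 per sample. Isoforms were aligned to RefSeq hairpins and loci taken from GENCODE M21. Other steps ran in Python 3.11.15 with pandas 2.3.3, NumPy 2.4.6, SciPy 1.17.1 and Matplotlib 3.10.9. The members, the lists and the rule for named miRNAs (both members, the Hox-cluster and miR-99/100 lists, the 5 most alike miRNAs and the 6 most abundant isoforms per member) were chosen with earlier results of these data known. Per the study's methods each group was 3 mice, though the WT labels do not name the animals.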

Additional observations from a re-analysis of the deposited data

How the results depend on the processing

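Both members missed the threshold under every alternative run, with a lowest unadjusted p of 0.134 for miR-10a-5p and 0.162 for miR-10b-5p over 18 alternatives each, and the miR-10a-5p change was below 0 in all 18. With 1 sample left out in turn, the log2 change was between −0.78 and −0.08 for miR-10a-5p and between −1.37 and 0.19 for miR-10b-5p, the one positive value being that without Tau tg replicate 3. Under the same omissions, the log2 ratio of the members differed by −0.88 to 0.86, negative without WT replicate 1 or Tau tg replicate 3. The summed level differed by −0.67 to −0.08, the mature share by −8.57 to −0.88 percentage points for miR-10a-5p and by −1.74 to 10.4 for miR-10b-5p, and the mean read length by −0.17 to 0.040 nt and by 0.14 to 0.29 nt. Without Tau tg replicate 2 the miR-10b-5p share and the miR-10a-5p length changed sign, and the cause was not tested. Under 2 other choices of reads the miR-10b-5p length difference was 0.18 and 0.17 nt. The count of miRNAs with an unadjusted p under 0.05 was between 18 (without Tau tg replicate 3) and 50 (without WT replicate 1), and with all 6 samples DESeq2 called 5 after adjustment where limma and edgeR called 0, while limma called 1 without Tau tg replicate 1. The count of miR-10 isoforms was 0 to 1 when a sample was left out, and 1 each with a pseudocount of 0.1 and with median-of-ratios scaling, the same 24-nt miR-10a-5p read each time. Among single miRNAs, leaving out a sample moved the log2 change from −0.96 to 0.036 for miR-196a-5p, from −0.78 to 0.29 for miR-196b-5p, from −0.023 to 0.67 for miR-615-3p, from −0.33 to 0.32 for miR-99b-5p and from −1.57 to −0.059 for miR-99a-5p. For the leading miR-10a-5p read the range was −0.73 to 0.16. Reads 2 and 3 of miR-10b-5p ranged from −1.12 to 1.11 and from −1.25 to 0.86, and both were negative with a pseudocount of 0.1 (−0.88 and −0.69), read 2 also with median-of-ratios scaling (−0.072) and quantile normalization (−0.19). A fit with the replicate number as a replicate block gave −0.45 (p 0.242, limma) and −0.51 (p 0.604, limma) for the members and 22 miRNAs in place of 25. The numbers were not taken as pairs, since the deviations of same-numbered samples had correlations of −0.0020, −0.069 and 0.041. Adding 9 hairpin sequences without a mature name, 1 to 13 reads per sample, was chosen after seeing the data and changed no call. Depth limits miR-10b-5p, with 22 to 149 reads per sample.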
